A study of Mus musculus with 6 samples.

Results

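The genes described here are 48 genes of DNA replication and S phase, taken as a named list and looked up by symbol in count tables of mouse fetal heart ventricle. All 48 were found among the 25006 genes of the files, and all 48 passed the filter on low counts that left 14815 genes for testing. The comparison is between 3 control libraries and 3 libraries labelled null, all from ventricles of NMRI embryos at embryonic day 17.5. Per the labels, the null libraries have the genotype VecadcreERT2; Prox1f/f, a tamoxifen-inducible Cre recombinase under the endothelial VE-cadherin promoter with floxed alleles of Prox1, the transcription factor that sets lymphatic endothelial identity. The control libraries have the genotype label WT, although both parents of the cross described in the growth protocol carry floxed Prox1. Mothers in both groups were injected with tamoxifen, 5 mg for each 40 g body weight, at E13.5 and E14.5. Per its title, the series concerns the part of lymphatic vessels in heart development.

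A cell copies its DNA once per cycle in an ordered series of steps. In G1 the origin recognition complex, with Cdc6 and Cdt1, loads the ring-shaped MCM helicase onto origins, which is called licensing. At the start of S phase kinases turn the ring into an active helicase with Cdc45 and the GINS complex, and polymerases, a sliding clamp and nucleotide-making enzymes then carry synthesis. E2F transcription factors switch on most of these genes at the border of G1 and S. In the late fetal heart cardiomyocytes, endothelial cells and fibroblasts all still divide, so a whole ventricle holds replication transcripts from several cell types.

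In short, replication genes stood slightly lower in null-labelled ventricles. Of the 48 genes, 7 fell, 0 rose (also in DESeq2 and limma-voom, and at an unadjusted p under 0.05) and 41 did not pass the test, which was edgeR's quasi-likelihood test with Benjamini-Hochberg adjustment over all 14815 genes and a threshold of 0.05. Over all genes tested, 2.98% were called lower and 2.43% higher. The genes that fell were Cdc6, E2f2, Pole, Orc6, Tk1, Pold1 and Mcm6, by 12.1% to 26.2%. The fold change lay below 0 for 46 of the 48, against 51.2% of all genes tested. Their median log2 fold change was −0.149, a difference of −9.8%, beside a median of −0.00396 over all genes tested. In 24 of the 48 every null-labelled library lay below every control, which 13.9% of all genes tested did. These counts are over genes measured in the same 6 libraries, so the 48 genes are not separate observations of the groups. Relative to the mean log2 CPM of the controls, the library medians of the 48 genes were 0.0284, 0.0698 and −0.0956 in controls 1 to 3. In null 1 to null 3 they were −0.15, −0.152 and −0.116, so null 3 lay close to control 3.

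**Figure D1:**
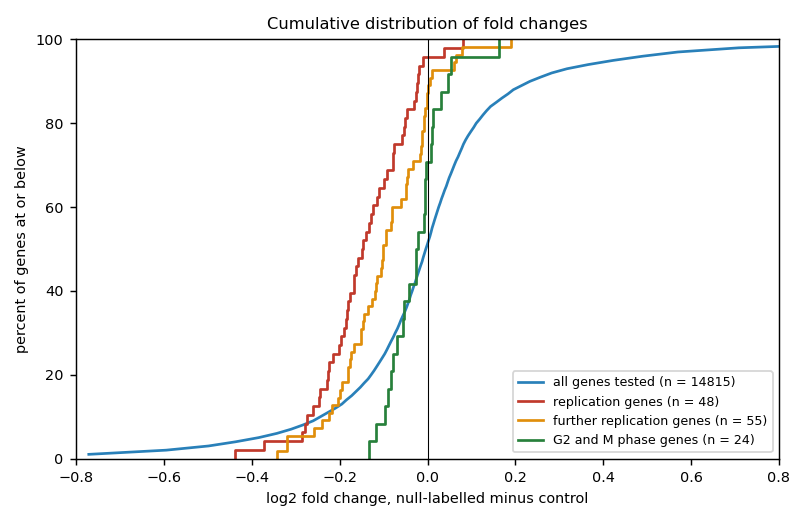
Cumulative distribution of the log2 fold change, null-labelled minus control, for the 48 replication genes, 55 further replication genes, 24 G2 and M phase genes and all 14815 genes tested. The replication genes cross the middle of the vertical axis at −0.149, the G2 and M phase genes at −0.024 and all genes tested at −0.00396.

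The number of calls rested on single libraries. It was 3 without control 1 (2.01% of all genes tested called lower), 1 without control 2 (1.61%) and 16 without control 3 (3.29%). Of the 16 without control 3, only 5 were among the 7 called with all libraries. Leaving out null 1 gave 1 call (1.54%), null 2 gave 0 (0.839%) and null 3 gave 2 (1.01%). In these 6 fits the median log2 fold change of the 48 genes stayed between −0.187 and −0.111. DESeq2 called 10 genes lower and limma-voom 3, where 3.73% and 2.42% of all genes tested were called lower. Cdc6, Orc6 and Tk1 were the 3 genes called by all 3 tools with all libraries. Other scalings gave 6 calls (size factors of the kind DESeq2 uses, 2.7%), 7 (upper quartile, 2.66%) and 7 (total counts, 3.11%), and no gene changed sign under them. A filter at a mean of 1 CPM gave 7 (3.2%), no filter 9 (2.69%), a sex term 8 (2.5%), the replicate number as a term 2 (2.04%) and a threshold of 0.1 gave 16 (5.07%).

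**Figure D2:**
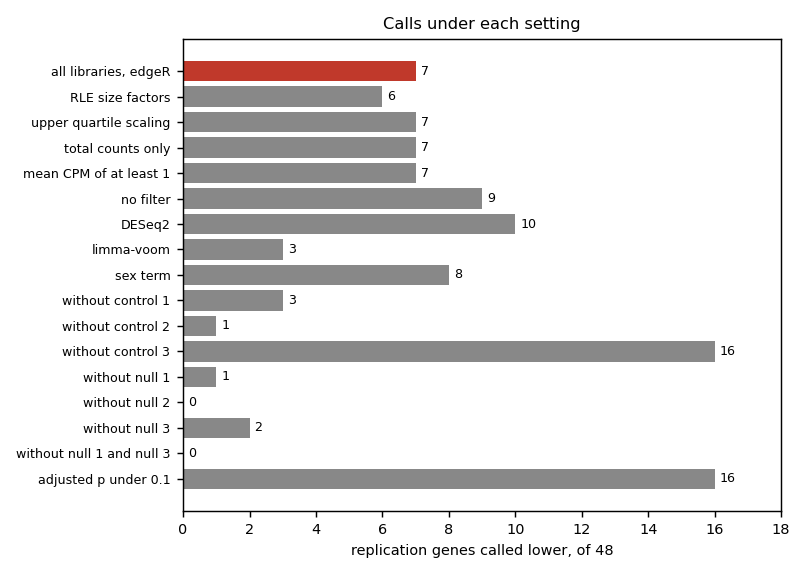
Number of the 48 replication genes called lower (horizontal axis) under each setting except the replicate number as a term, with edgeR and all 6 libraries in red. The bars run from 0 without null 2 and without null 1 and null 3 to 16 without control 3 and at a threshold of 0.1.

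Libraries differed in ways that bear on this. Total counts ranged from 35195544 to 44330594 and the 48 genes had 177 to 10862 counts in a library. The labels do not say whether each library came from its own embryo, so p-values cover only the spread between samples, part of which may be technical. The sexes given next differ within each group, so its libraries did not all come from the same embryo. Library pairs within a group differed by 9.21 to 27.9 times the variance of counting alone (Poisson chi-square per degree of freedom). By Xist and Y-linked counts each group held 2 male libraries and 1 female (control 3 and null 2), but null 1 and null 3 also had Xist at 3.17% and 9.86% of the female control level. Without both of these libraries 0 replication genes were called lower, with 0.204% of all genes called lower. Prox1 itself passed the test in the direction against the label, higher in null-labelled libraries (log2 fold change 0.15 ± 0.03, edgeR adjusted p = 0.0331). It had 143 to 149 CPM (counts scaled to library size) in controls and 160 to 168 in those labelled null. Whole-gene counts include exons outside any deleted part and come from all cells of the ventricle. They do not test a deletion in endothelial cells. Esr1, part of which is carried by inducible Cre fusions, had 9 to 19 counts in controls and 244 to 298 in null-labelled libraries. Because Cre goes with the null label, Prox1 loss and Cre activity cannot be told apart.

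Short promoter sequences are shown because E2F factors are known to act on many replication genes, and the letters let a reader see which promoters hold such a site. Promoter windows of 250 bases before to 50 after a RefSeq gene start (GRCm38.p6, the build of the files) were available for 39 of the 48 genes, in 47 windows. They were searched on both strands for the E2F words TTTCCCGC, TTTCGCGC, TTTGCCGC and TTTGGCGC, which may overlap each other. A word was found in 14 of 47 windows (29.8%), one window in each of 14 genes, against 2.26% of all 32851 windows and 3.71% of windows of tested genes. The CCAAT box (CCAAT) was found in 25 of 47 windows (53.2%, against 37.4% of all windows and 37.1% of windows of tested genes). TTTGAA, the CHR element of G2 and M phase promoters, was found in 9 (19.1%, against 17.9% of all windows and 12.1% of windows of tested genes). A match is a run of letters, not evidence of binding. Up to 200 bases before the RefSeq start of 4 genes follow, 5′ to 3′ on the gene's strand, without bases that GENCODE M21 annotates as untranslated, and with E2F words in capitals. Cdc6 (chr11:98907982-98908150, plus strand), Mcm6 (chr1:128359706-128359905, minus strand) and Tk1 (chr11:117826093-117826214, minus strand) fell in null-labelled ventricles, with and without a word. Mcm5 (chr8:75109309-75109508, plus strand) holds words and did not pass the test.
Cdc6: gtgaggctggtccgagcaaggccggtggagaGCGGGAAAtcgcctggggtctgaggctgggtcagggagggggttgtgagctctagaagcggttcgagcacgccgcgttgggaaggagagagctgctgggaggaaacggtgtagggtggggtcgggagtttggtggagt
Mcm6: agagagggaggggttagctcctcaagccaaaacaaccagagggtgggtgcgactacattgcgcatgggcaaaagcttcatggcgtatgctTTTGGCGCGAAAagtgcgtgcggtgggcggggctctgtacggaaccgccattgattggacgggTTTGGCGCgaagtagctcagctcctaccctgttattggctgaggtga
Mcm5: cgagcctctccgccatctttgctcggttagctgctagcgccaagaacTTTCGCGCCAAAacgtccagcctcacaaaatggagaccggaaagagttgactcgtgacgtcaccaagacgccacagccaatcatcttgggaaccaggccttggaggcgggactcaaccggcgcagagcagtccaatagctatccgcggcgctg
Tk1: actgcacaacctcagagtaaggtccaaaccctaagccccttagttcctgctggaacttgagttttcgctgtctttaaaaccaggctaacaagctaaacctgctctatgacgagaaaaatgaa
The Mcm6 stretch holds 3 E2F words, of which 2 overlap, and the Mcm5 stretch holds 2 that overlap. The Cdc6 stretch, which follows the first exon of Cdc6 in GENCODE, holds 1. Orc6 and Tk1 fell with no such word in their windows. The 14 genes with a word had a median log2 fold change of −0.188 (range −0.44 to −0.03), with 4 called lower. The 25 genes with a window and no word had a median of −0.129 (range −0.26 to 0.04), with 2 called lower. These medians are a description without a test.

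Licensing genes held the largest fall. Cdc6, the loader that recruits the MCM ring to origins (chromosome 11, 98907801 to 98923940, GRCm38), had 17.9, 19.7 and 17.6 CPM in controls, against 13.0, 13.1 and 14.6 in the null-labelled ones. Every null-labelled library lay below every control. The means were 18.4 ± 1.146 and 13.6 ± 0.88 CPM (SD, n = 3), and the log2 fold change was −0.44 ± 0.08 (SE; edgeR adjusted p = 0.0133). The call was lost without null 2 (adjusted p = 0.0584) and without null 1 and null 3 together.
Orc6, the smallest subunit of the origin recognition complex (chromosome 8, 85299632 to 85308278), had 24.9, 23.9 and 24.5 CPM in controls, against 20.8, 19.1 and 21.2 in the null-labelled ones. The groups did not overlap, and the log2 fold change was −0.26 ± 0.06 (edgeR adjusted p = 0.036). Omitting any 1 of the 6 libraries ended the call (adjusted p between 0.0555 and 0.128). Orc1, the ATP-binding subunit of the same complex, had a log2 fold change of −0.22 ± 0.12 with overlapping groups and did not pass (adjusted p = 0.371).

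Cdt1, the partner of Cdc6, had 48.8, 46.5 and 38.7 CPM in controls, against 36.5, 36.9 and 36.6 in the null-labelled ones. Control 3 sat close to the null-labelled values and the other controls well above them. Its log2 fold change of −0.29 ± 0.08 did not pass in edgeR (adjusted p = 0.0716) but did in DESeq2 (adjusted p = 0.0211) and in edgeR without control 3 (adjusted p = 0.00316). Gmnn, which encodes geminin, the inhibitor of Cdt1, went the other way in sign: 39.6, 40.6 and 36.3 CPM in controls, against 40.9, 41.8 and 40.6 in the null-labelled ones. Its log2 fold change of 0.08 ± 0.05 did not pass (adjusted p = 0.417). Of the 5 licensing genes, 2 fell and 3 did not pass, and the median log2 fold change was −0.26.

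The MCM ring, the helicase core made of Mcm2 to Mcm7, gave 6 fold changes below 0 and 1 call. Mcm6 (chromosome 1, 128331590 to 128359664) had 133.5, 133.1 and 119.9 CPM in controls, against 112.5, 112.3 and 115.0 in the null-labelled ones. The groups did not overlap, the log2 fold change was −0.19 ± 0.04, and adjusted p was 0.0441 in edgeR. The call was lost in 8 of 17 alternatives, among them limma-voom (adjusted p = 0.0687). For this and the other called genes, the 17 include a threshold of 0.1 on the same fit, where a call could not be lost. The other subunits had log2 fold changes of −0.18 (Mcm4 and Mcm5), −0.15 (Mcm2), −0.14 (Mcm3) and −0.03 (Mcm7), with adjusted p from 0.0881 to 0.847. In all 6 of these genes control 3 was the lowest control. Without control 3 Mcm2, Mcm3, Mcm4, Mcm5 and Mcm6 were called lower and Mcm7 was not (log2 fold change −0.09, adjusted p = 0.198). Mcm7 shares 12.6% of its exonic bases with other genes in the files, and the strand setting of the counting is not given in the sources used here.

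**Figure D3:**
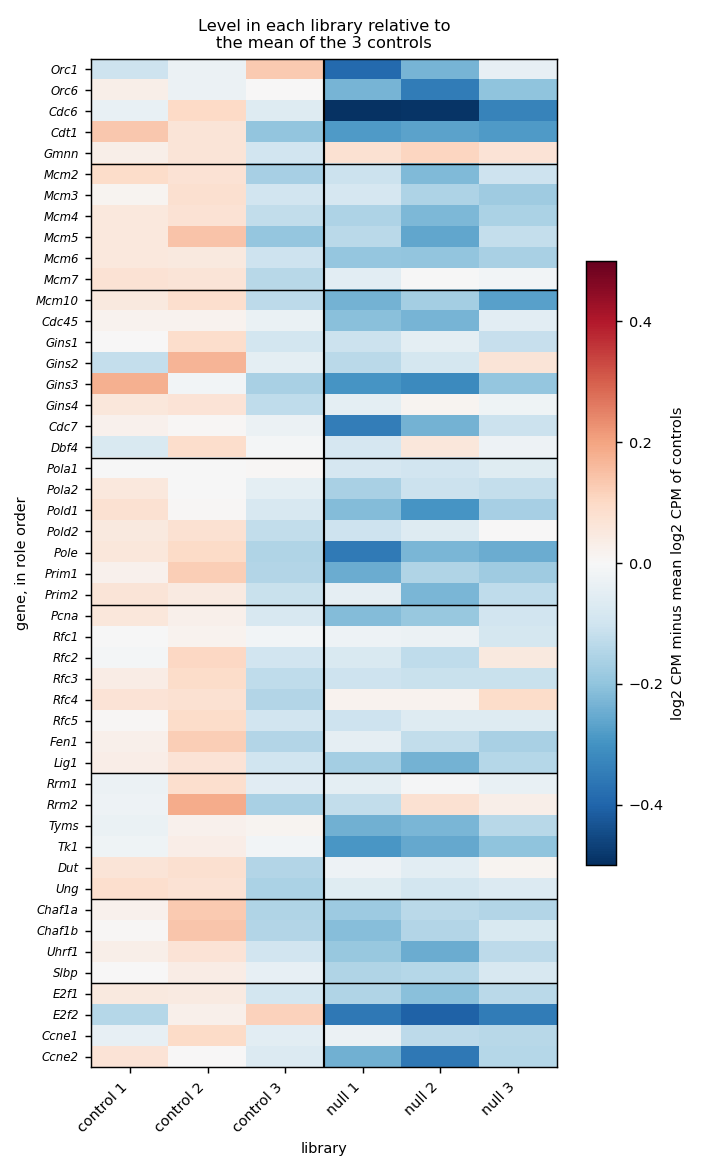
Level of each of the 48 genes (rows, in order of role) in each library (columns) as log2 CPM minus the mean log2 CPM of the 3 controls. The null-labelled columns are mostly blue (library medians −0.15, −0.152 and −0.116), and control 3 is blue as well for most genes (median −0.0956).

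None of the 8 genes of helicase activation and origin firing was called by edgeR, DESeq2 or limma-voom, and 4 were lower at an unadjusted edgeR p under 0.05, as were 24 of the 48 genes and 10.9% of all genes tested. All 8 fold changes were below 0, with a median of −0.128. Gins3, a GINS subunit, had −0.28 ± 0.10 (adjusted p = 0.137), Mcm10, which helps open the helicase, −0.23 ± 0.07 (adjusted p = 0.0996) and Cdc45, the helicase cofactor, −0.16 ± 0.06 (adjusted p = 0.156). Cdc7, the kinase that phosphorylates the MCM ring, had 28.6, 28.3 and 27.6 CPM in controls, against 22.2, 23.9 and 26.2 in the null-labelled ones, without overlap (log2 fold change −0.23 ± 0.07, adjusted p = 0.0802). For its activating subunit Dbf4 the groups overlapped, and the log2 fold change was −0.02 ± 0.06 (adjusted p = 0.898). Nor did the GINS subunits lie at 1 value, since Gins1, Gins2 and Gins4 had −0.09, −0.05 and −0.02. The Gins2 value is uncertain, because 67.3% of its exonic bases are shared with Gse1.

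Among polymerases and primase, the catalytic subunits of the leading and lagging strand polymerases fell. Pole, catalytic subunit of the leading strand polymerase (chromosome 5, 110286306 to 110337474), had 69.9, 71.9 and 60.7 CPM in controls, against 52.7, 57.4 and 56.7 in the null-labelled ones. Its log2 fold change was −0.28 ± 0.07 (adjusted p = 0.0436), and the call was lost in 9 of 17 alternatives. Pold1, catalytic subunit of the lagging strand polymerase (chromosome 7, 44532746 to 44548849), had 45.3, 43.2 and 40.6 CPM in controls, against 37.1, 35.1 and 38.4 in the null-labelled ones. Groups did not overlap in either gene, and control 3 was again the lowest control in both. The log2 fold change of Pold1 was −0.22 ± 0.05 (adjusted p = 0.0458), and it lost its call in 9 of 17 alternatives, including DESeq2-style size factors within edgeR. Pold2, an accessory subunit of the same polymerase, had −0.06 ± 0.06 with overlapping groups (adjusted p = 0.639).
The polymerase that starts new strands did not pass in any of its subunits. Prim1 and Prim2, the primase subunits, had −0.20 and −0.13, and Pola1 and Pola2, the polymerase alpha subunits, −0.08 and −0.13, with adjusted p from 0.136 to 0.391. Pola1, on the X chromosome, had 39.9 to 40.2 CPM in controls and 37.5 to 38.4 in null-labelled libraries, without overlap.

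**Figure D4:**
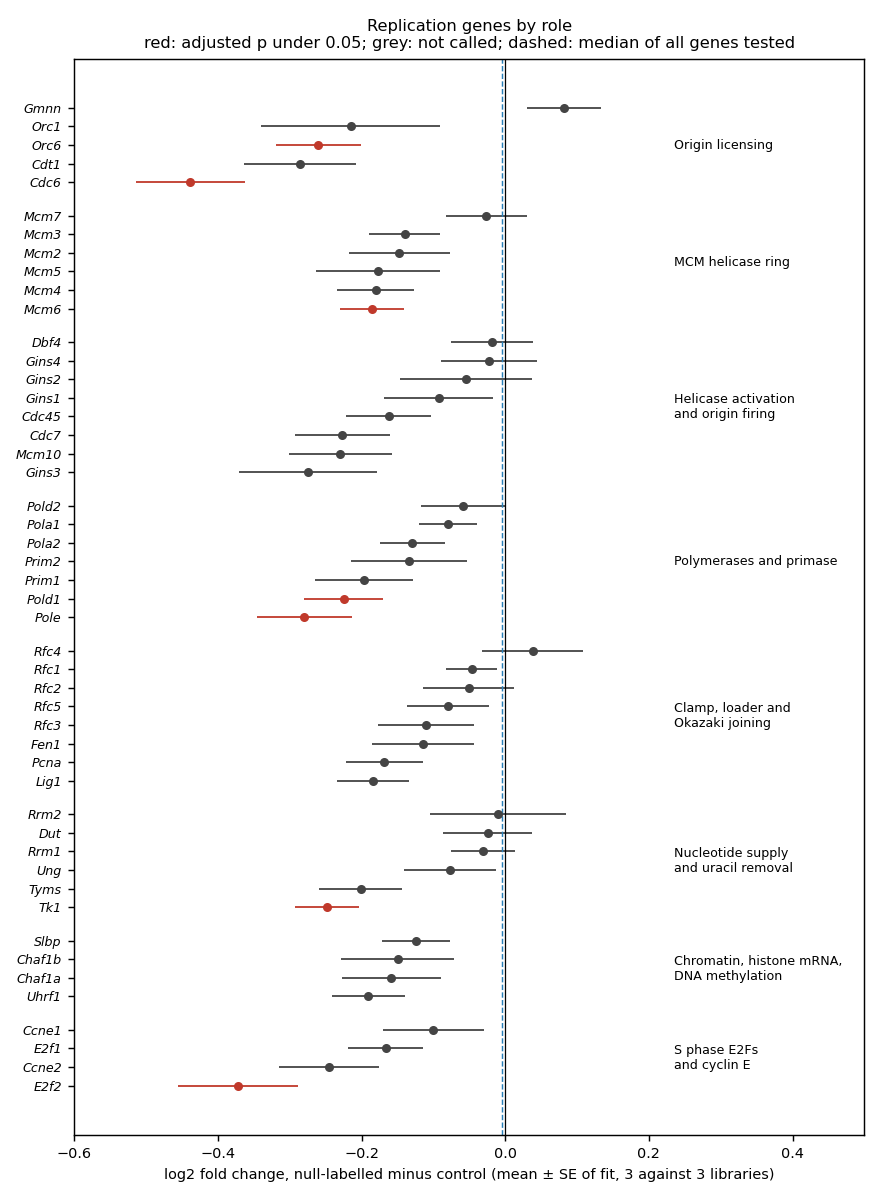
Log2 fold change ± SE (horizontal axis) of each of the 48 genes, grouped by role, with genes called lower in red. Cdc6 lies farthest to the left at −0.44, and Gmnn (0.08) and Rfc4 (0.04) are the 2 genes to the right of 0.

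Clamp, clamp loader and Okazaki joining genes gave 0 calls among 8 in edgeR and in limma-voom and 1 in DESeq2, with 2 lower at an unadjusted edgeR p under 0.05 (10.9% of all genes tested). Those 2 were Lig1, the ligase that seals Okazaki fragments, and Pcna, the sliding clamp. Lig1 had 85.5, 87.7 and 78.1 CPM in controls, against 74.3, 71.1 and 75.7 in the null-labelled ones, a log2 fold change of −0.18 ± 0.05 (adjusted p = 0.0678 in edgeR and 0.0451 in DESeq2). Pcna had 40.9, 39.9 and 37.2 CPM in controls, against 33.8, 34.4 and 36.8 in the null-labelled ones (−0.17 ± 0.05, adjusted p = 0.107). In both genes the groups were separate, by a narrow margin in Pcna. The 5 clamp loader genes Rfc1 to Rfc5 lay closer to 0, from −0.11 (Rfc3) to 0.04 (Rfc4), with adjusted p from 0.396 to 0.814. Fen1, which trims Okazaki fragments, had −0.11 ± 0.07 (adjusted p = 0.403).

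Of the 6 genes of nucleotide supply and uracil removal, 1 fell. Tk1, thymidine kinase of the salvage route (chromosome 11, 117815526 to 117826092), had 46.6, 48.4 and 46.8 CPM in controls, against 38.6, 39.6 and 41.1 in the null-labelled ones. The groups were well apart, with means of 47.2 ± 0.975 and 39.8 ± 1.29 CPM (SD, n = 3). The log2 fold change was −0.25 ± 0.04 (adjusted p = 0.0158). The call held in 13 of 17 alternatives and was lost without control 2, null 1 or null 2 (adjusted p up to 0.0639) and without null 1 and null 3 together. The 17 include the threshold of 0.1 on the same fit, where the call of Tk1 could not be lost. Tyms, which makes thymidylate from scratch, had −0.20 ± 0.06 with separate groups and did not pass (adjusted p = 0.0774).
Neither ribonucleotide reductase gene in the list passed the test. Rrm1, its large subunit, had 247, 267 and 242 CPM in controls, against 243, 251 and 245 in the null-labelled ones (log2 fold change −0.03 ± 0.04, adjusted p = 0.75). Rrm2, the small subunit that rises in S phase, had 134, 154 and 122 CPM in controls, against 125, 143 and 139 in the null-labelled ones (−0.01 ± 0.10, adjusted p = 0.97). The controls alone spread wider than the difference of the means in both genes. Dut, which keeps uracil out of DNA, and Ung, which removes it, had −0.02 ± 0.06 and −0.08 ± 0.06.

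Chromatin genes lay below 0 without a call in edgeR. Uhrf1, which guides maintenance DNA methylation to new strands, had 89.1, 91.5 and 81.8 CPM in controls, against 76.6, 73.6 and 79.8 in the null-labelled ones. The groups did not overlap, and the log2 fold change of −0.19 ± 0.05 had an adjusted p of 0.0617 in edgeR and 0.0354 in DESeq2. Chaf1a and Chaf1b, subunits of the histone chaperone CAF-1, had −0.16 and −0.15, and Slbp, which binds histone mRNA, −0.12, with adjusted p from 0.166 to 0.321. Chaf1a shares 52.5% of its exonic bases with Ubxn6, so its value is uncertain.

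Of the regulators, E2f2, an activating E2F, fell (chromosome 4, 136172394 to 136196057). It had 11.5, 12.9 and 13.8 CPM in controls, against 9.92, 9.6 and 9.97 in the null-labelled ones, without overlap. The log2 fold change was −0.37 ± 0.08 (adjusted p = 0.0343). Here control 3 was the highest control, unlike in most of the other genes, and the call was lost in 9 of 17 alternatives. E2f1, its close relative, had 42.8, 42.8 and 38.9 CPM in controls, against 37.4, 35.8 and 37.7 in the null-labelled ones (−0.17 ± 0.05, adjusted p = 0.0998). Ccne2, a cyclin E gene, had −0.25 ± 0.07 with separate groups (adjusted p = 0.0749), and the other cyclin E gene, Ccne1, −0.10 ± 0.07 with overlapping groups (adjusted p = 0.475). Of the 4 regulators 1 fell, and all 4 lay below 0.

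**Figure D5:**
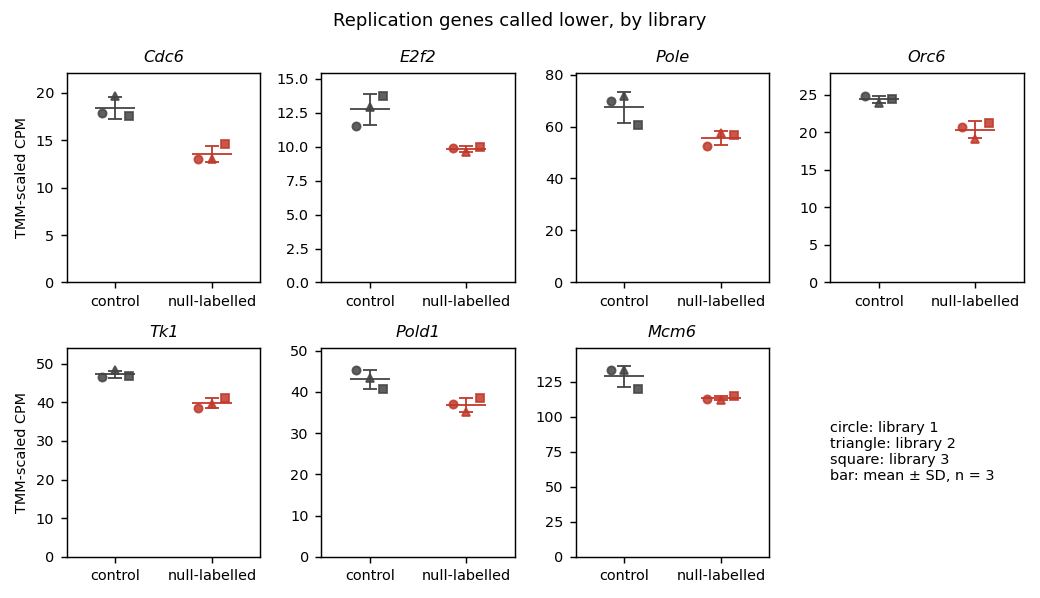
TMM-scaled CPM of the 7 genes called lower, by library, with mean ± SD (n = 3) and axes that start at 0. In each panel the 3 null-labelled points lie below the 3 control points, from Cdc6 (13.0 to 14.6 against 17.6 to 19.7) to Mcm6 (112.3 to 115.0 against 119.9 to 133.5).

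Seen by library, control 2 had the highest value of all 6 libraries in 29 of the 48 genes and control 1 in 14. Control 3 was the lowest control in 40 of 48, and the lowest of all libraries in 10. Null 1 and null 2 were each the lowest library in 16 genes and null 3 in 6. Control 3 also had the highest summed CPM of 10 erythroid markers, 5075, while control 1 had 1746, control 2 had 2893 and the null-labelled libraries 1207 to 1968. It had the highest sum of 8 hepatocyte markers as well, 24.1 CPM against 3.27 to 11.2 in the other 5 libraries. Their part in the low replication values of control 3 was not tested.

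Per length, the genes differed far more from each other than between groups. Control levels per kilobase of merged exons ran from 49.3 ± 5.97 CPM per kb for Rrm2 to 1.66 ± 0.14 for Orc1 (SD, n = 3), a ratio of 29.7. The 6 MCM ring genes were all between 17.5 ± 1.69 (Mcm2) and 29.2 ± 1.79 (Mcm3) CPM per kb, with the loader Cdt1 at 14.2 ± 1.68 and the loader Cdc6 well below, at 3.52 ± 0.219. Among GINS subunits Gins4 stood at 15.4, Gins1 at 7.62, Gins3 at 4.45 and Gins2 at 3.59 CPM per kb. The value of Gins2 is uncertain, since it shares 67.3% of its exonic bases with Gse1. In the order of all 48 genes, 40 of the 47 neighbouring pairs overlapped in their control values, so only the coarse order can be read. Merged exons include every annotated exon of a gene, whether or not ventricle transcripts use it. Differences per kilobase therefore also depend on the annotation.

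A further list of 56 replication genes outside the 48, of which 55 were found and tested, gave 5 calls lower (9.09%), 1 higher and 49 without a call. This list was chosen with earlier results of these data known and was measured in the same libraries, so it is not an independent repeat. Of all genes tested, 2.98% were called lower and 2.43% higher. The fall was in Timeless (−0.26 ± 0.06, adjusted p = 0.0289), a fork protection factor, Dna2 (−0.32 ± 0.07, adjusted p = 0.0371), a nuclease and helicase of Okazaki processing, and Chtf18 (−0.34 ± 0.07, adjusted p = 0.0244), a subunit of an alternative clamp loader. Hells, a chromatin remodeller, had −0.22 ± 0.05 (adjusted p = 0.035). The dimerisation partners of E2F proteins parted. Tfdp1 fell from 42.2, 42.8 and 42.5 CPM in controls to 37.5, 36.9 and 38.1 (log2 fold change −0.18 ± 0.04, adjusted p = 0.0356). Tfdp2 rose from 83.6, 77.1 and 79.5 to 93.1, 91.7 and 89.1 CPM (0.19 ± 0.04, adjusted p = 0.0323). The groups did not overlap in either gene. Others did not pass: Dnmt1, the maintenance DNA methyltransferase, had −0.15 (adjusted p = 0.0829), Cdk2, the S phase kinase, −0.17 (adjusted p = 0.0844), Rpa1, which coats single-stranded DNA, 0.01 and Ccna2, cyclin A, −0.00238. The median of the list was −0.10. Leaving out 1 library gave 0 to 8 calls lower, with 0 without control 1, control 2, null 2 or null 3, 1 without null 1 and 8 without control 3. The same fits called from 0.839% (without null 2) to 3.29% (without control 3) of all genes tested lower. The higher call of Tfdp2 was lost with a sex term and without control 2, null 1, null 2 or null 3.

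Genes of G2 and M phase gave 0 calls among 24 in edgeR, DESeq2 and limma-voom, with 3 unadjusted edgeR p under 0.05. Of these 2 of 24 were lower, beside 10.9% of all genes tested. Their median log2 fold change was −0.024. Mki67, the proliferation marker, had 470, 502 and 493 CPM in controls, against 429, 468 and 453 in the null-labelled ones (−0.12 ± 0.05, adjusted p = 0.184). Top2a, the topoisomerase of G2 and M phase, had 417, 424 and 420 and then 405, 444 and 438 CPM (0.03 ± 0.04, adjusted p = 0.766). Control 2 was the highest library in 11 of the 24 and null 2 in 9, and null 1 was the lowest in 18. Whether the 2 lists differ was not tested.

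Markers of some other cell types moved between the same groups. In bulk tissue fewer cells of a type and less RNA per cell cannot be told apart. As background to the edgeR counts below, 2.98% of all genes tested were called lower and 2.43% higher. Of 8 endothelial markers 5 fell, all 8 lay below 0, and their summed level was 1724 to 1941 CPM in controls and 1424 to 1557 in null-labelled libraries. Of 7 fibroblast markers 3 rose, with sums of 5631 to 6589 and 6940 to 7738 CPM. Of 8 macrophage markers 4 rose, with sums of 70.5 to 81.7 and 90.8 to 113 CPM. Of 6 epicardial markers 2 fell, with sums of 195 to 227 and 172 to 193 CPM. DESeq2 and limma-voom called 6 and 3 of the endothelial, 4 and 3 of the fibroblast, 6 and 1 of the macrophage and 3 and 1 of the epicardial markers, in the same directions. The exact two-sided permutation p of each of these 4 sums was 0.1, the smallest that 3 libraries against 3 can give. The 8 cardiomyocyte markers gave 0 calls in edgeR and limma-voom, 1 higher in DESeq2 and 2 at an unadjusted edgeR p under 0.05, and their sums overlapped (48948 to 53689 and 52854 to 53431 CPM, exact permutation p = 0.4). Of 10 erythroid markers 7 were tested, and all 7 lay below 0 (median log2 fold change −0.915). None was called in edgeR or limma-voom and 1 was lower in DESeq2. Their sums overlapped (1746 to 5075 and 1207 to 1968 CPM, exact permutation p = 0.3). The sums of hepatocyte and atrial markers overlapped as well (exact permutation p = 0.8 and 0.4). Thymocyte markers, from the neighbouring and strongly dividing thymus, were near 0, with sums of 1.45 to 1.98 and 1.21 to 1.49 CPM (exact permutation p = 0.3). Lung epithelial markers summed to 0.0455 to 0.139 CPM in controls, and to 0.274, 5.14 and 0.315 in null 1, null 2 and null 3. The sums did not overlap (exact permutation p = 0.1), but 0 of these 4 genes passed the filter on low counts. The part of these cell types in the replication gene values was not tested.

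Calls near the replication genes in the genome were counted as well. Within 1 Mb of Cdc6, Orc6, Mcm6, Pole and Tk1, 0 of 33, 36, 10, 25 and 27 tested neighbours were called, against 5.41% of all genes tested. Near Pold1, 3 of 73 were called. Near E2f2, 5 of 31 were called (16.1%), of which C1qa, C1qb and C1qc are complement genes of macrophages. The largest count for a gene without a call of its own, apart from the gene-dense Pola2 region with 6 of 85, was at Cdc45, with 5 of 27 (18.5%).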

How the data were processed

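RNA sequencing counts of 6 ventricle libraries (3 control, 3 null-labelled) were used. The authors deposited whole-number counts per Ensembl gene, 1 file per library, without normalisation. The tools named per the submitters' processing notes are STAR, HTSeq 0.6.1p1, cutadapt 1.13 and DESeq2, with build mm10. Their role and order, the annotation release and the strand setting were not given in sources used here. Of 25006 identifiers, 24991 matched GENCODE M21 for symbols and exon lengths; the 15 unmatched ones took up to 0.00212% of the counts in any library.

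In R 4.3.3, genes were filtered with filterByExpr, scaled by TMM and tested null against control with the robust quasi-likelihood F test of edgeR 4.0.16, group as the only term, two-sided, adjusted over all genes tested. Adjusted p-values come from this fit unless DESeq2 1.42.0 or limma-voom (limma 3.58.1) is named. SE was derived from the fold change and F. CPM are TMM-scaled. Alternatives were other scalings, filters and tools, each library left out, null 1 and null 3 left out, a replicate or sex term, and a threshold of 0.1. That threshold used the main fit, so a gene called at 0.05 could not lose its call there.

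The list of 48 genes, the further lists and the alternatives were chosen with earlier results of these data known, so no list was tested as a whole. All 48 genes, called genes of the further lists and 6 fixed others may be named; the rule also covers leading marker genes, which are given here as sums. Genes named as neighbours were chosen after their values were seen. Supt16h was not matched by symbol. On simulated counts for 14815 genes the test recovered 2% of genes changed by 15% and 16% at 1.2-fold. It recovered 86% at 1.5-fold and 94% at 2-fold, with 14 false calls. Few genes were changed in the simulation, so these 14 have to be set against the calls made in it, not against 14815 genes. The share of false calls among those calls is not given here, so the simulation does not show that the 7 calls are free of false ones. Exonic overlap and near copies were checked: 12 of the 48 genes share exonic bases with another gene, and Gins2 and Chaf1a share over 50%. Promoter windows came from RefSeq; Gmnn, Mcm4, Gins1, Gins2, Gins4, Pole, Prim2, Rfc2 and Ccne2 had none in the table. Of the 47 windows, the last 20 bases matched a transcript of the gene in 41, and in 0 when reversed.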

Additional observations from a re-analysis of the deposited data

How the results depend on the processing

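The number of the 48 genes called lower (7) was 3 with limma-voom, 16 at a threshold of 0.1, 0 without null 1 and null 3, and 0 to 16 with single libraries left out; scalings, filters, DESeq2 and a sex term gave 6 to 10. Further replication genes called lower (5) were 3 with a sex term, 10 at 0.1, 0 without null 1 and null 3 and 0 to 8 with single libraries left out. The 1 called higher was 0 with a sex term and without null 1 and null 3, and 0 to 1 with single libraries left out. Over all genes 441 lower and 360 higher became 751 and 679 at 0.1, 31 and 21 without null 1 and null 3, and 126 to 494 and 127 to 448 with single libraries left out; DESeq2 called 543 higher. The cause of these changes was not tested. Fits without a library also held fewer libraries. With a replicate block, 2 of the 48 genes (Cdc6 and Tk1) and 1 further replication gene were called lower. Same-numbered libraries deviated with correlations of −0.0643, −0.0467 and −0.121, so the numbers were not taken as pairs, and no library correlated best with its own number. No gene of the 48 changed sign under the 3 other scalings. Signs turned for genes near 0. Without null 1 and null 3, Gins4 was 0.0106, Dbf4 0.054 and Rrm2 0.0688. With single libraries left out Mcm7 ran from −0.0922 to 0.0117, Gins2 from −0.115 to 0.0325, Gins4 from −0.0833 to 0.00867, Dbf4 from −0.0559 to 0.025, Rfc2 from −0.103 to 0.000491, Rfc4 from −0.0302 to 0.0748, Rrm1 from −0.0602 to 0.0105, Rrm2 from −0.0865 to 0.0849 and Dut from −0.0929 to 0.0138. Windows with an E2F word (14) became 38 with the core GGCGC alone, which 36.9% of all windows and 59.8% of windows of tested genes hold. The median difference of the 48 genes was −9.8%. Simulation recovered 2% of genes changed by 15%, but few genes were changed in it, drawn from all genes above a low level. That share cannot be carried over to the 48 genes, of which 7 were called at differences of −12.1% to −26.2%.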
